A study of Mus musculus with 5 samples.

Results

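The 10 genes described here mark the endothelium, the cell layer that lines blood vessels, or respond in it to blood flow. They were chosen by symbol: 8 endothelial identity genes (Pecam1, Cdh5, Kdr, Tek, Tie1, Vwf, Emcn and Egfl7) and 2 flow-response genes (Klf2 and Klf4). All 10 were found among the 49315 genes of the count tables, and all 10 were among the 14221 genes tested after a filter on low counts. Poly-A RNA had been sequenced from hearts, labelled as whole, of mice fed a high-fat, high-sucrose diet (the HFHS-Fe group, 3 libraries) or standard chow (the chow-Fe group, 2 libraries). The diets lasted 18 weeks. Mice of both groups carried the same treatment, 1 intravenous dose of iron dextran, and 48 hours after it hearts were flushed with PBS, a saline buffer, and taken. The sources used here state no genotype, strain, sex or age. With iron given in both groups, the comparison is of diet under iron, not of iron. The labels number the libraries of a group without saying that each is another mouse, so the p-values speak for the spread between libraries, which may be technical.

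The endothelium of the heart is mostly capillary and delivers fuel and oxygen to the muscle cells beside it. Its cells are held together by the adhesion proteins PECAM1 and VE-cadherin, and they are kept alive and quiescent by growth factor receptors of the VEGF and angiopoietin families. Steady laminar flow acts through a kinase cascade and MEF2 factors to switch on the zinc finger transcription factors KLF2 and KLF4, which raise genes against clotting and inflammation.

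Total counts were 14362766 to 16546113 in HFHS-Fe libraries and 17331356 to 17774735 in chow-Fe libraries. Cardiomyocyte markers summed to 56348 to 59684 CPM in HFHS-Fe and 54263 to 60095 CPM in chow-Fe libraries, a sum within which 4 of 8 fell (Tnni3 1.52-fold, Myl2 1.42-fold, Myl3 1.36-fold and Tnnt2 1.14-fold lower) and 2 rose (Myh6 1.76-fold and Ryr2 1.74-fold); after correction for exon length and GC content 4 fell and 4 rose. The defining atrial genes Myl7 (0 to 7 counts per library) and Sln (0 to 1 counts) were nearly absent, which goes against a label of whole heart with its atria. Of the 2 atrial markers that were tested, Myl4 was low (0.790 to 2.00 CPM). Nppa was present, at 38.0, 46.1 and 32.7 CPM in HFHS-Fe libraries, against 87.5 and 31.8 CPM in chow-Fe libraries 1 and 2. The 8 identity genes summed to 858.0 to 885.6 CPM (counts scaled to the total of the library) in HFHS-Fe libraries and 1112 to 1125 CPM in chow-Fe libraries, so endothelial RNA was plain in every heart. All sums of markers use that scale, while single tested genes use adjusted library sizes, so sums and single genes are not on the same scale. In whole-tissue RNA, fewer cells of a type and less RNA per cell cannot be told apart. Genes of other cells fell in the same HFHS-Fe hearts: 7 of 7 red blood cell markers (summing to 250.4 to 524 CPM in HFHS-Fe and 1487 to 1703 CPM in chow-Fe libraries), 8 of 8 macrophage markers (108 to 126 CPM in HFHS-Fe and 241 to 262 CPM in chow-Fe) and 8 of 8 fibroblast markers (1564 to 1607 CPM in HFHS-Fe and 2273 to 2303 CPM in chow-Fe). The fibroblast count was 5 of 8 by DESeq2 and without HFHS-Fe replicate 1 or 2. It was 6 of 8 after correction for exon length and GC content. The macrophage count was 6 of 8 by DESeq2 and without HFHS-Fe replicate 3. No marker of these 3 lists was at 0, and their part in the results was not tested. Over all tested genes 18.7% fell and 19.4% rose, shares to set beside these counts and those of the cardiomyocyte markers. Long genes also tended to be higher and short genes lower: the median log2 fold change was -0.47 in the 10% of genes with the shortest exons and 0.32 in the 10% with the longest. A second fit removed, library by library, a smooth trend on exon length and GC content (called offsets here). Its values are given for most called genes named here where a call ended or the log2 fold change moved by over 1.5 times. Among the cardiomyocyte markers, the offsets moved Tnni3 from -0.60 to -0.40, Myl2 from -0.51 to -0.28 and Myl3 from -0.44 to -0.23. They moved Tnnt2 from -0.19 to -0.42, Ryr2 from 0.80 to 0.41 and Myh6 from 0.81 to 0.64.

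Sequence before the transcription start is shown for Klf2 and Klf4, which fell together, for Emcn, the identity gene with the largest fall, and for Kdr, which did not pass the test. The windows are the 250 bases before the RefSeq start (build GRCm38.p6), written 5′ to 3′ on the strand of the gene. Klf2 lies on the plus strand (chr8:72318812-72319061), Klf4 on the minus strand (chr4:55532476-55532725), Emcn on the plus strand (chr3:137340828-137341077) and Kdr on the minus strand (chr5:75978456-75978705). Capitals mark 3 motifs searched on both strands: the GC box GGGCGG, a MEF2 core (CTA, any 4 bases, TAG) and the ETS motif CAGGAAG. The short KLF motif CACCC was also counted and is left in lower case.
Klf2: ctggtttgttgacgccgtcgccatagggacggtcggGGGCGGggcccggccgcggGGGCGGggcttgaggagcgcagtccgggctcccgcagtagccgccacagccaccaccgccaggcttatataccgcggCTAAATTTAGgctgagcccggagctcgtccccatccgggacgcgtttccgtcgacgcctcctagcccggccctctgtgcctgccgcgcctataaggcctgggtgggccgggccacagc
Klf4: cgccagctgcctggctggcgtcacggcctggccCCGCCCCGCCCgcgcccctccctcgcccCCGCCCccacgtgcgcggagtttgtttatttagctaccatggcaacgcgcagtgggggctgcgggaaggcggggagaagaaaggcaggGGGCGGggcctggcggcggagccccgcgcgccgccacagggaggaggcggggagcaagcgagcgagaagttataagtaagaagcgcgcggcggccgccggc
Emcn: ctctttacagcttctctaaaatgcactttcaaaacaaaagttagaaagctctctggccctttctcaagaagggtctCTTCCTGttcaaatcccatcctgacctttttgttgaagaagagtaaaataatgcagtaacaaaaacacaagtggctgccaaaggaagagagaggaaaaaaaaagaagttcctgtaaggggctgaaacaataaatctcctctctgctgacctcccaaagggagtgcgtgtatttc
Kdr: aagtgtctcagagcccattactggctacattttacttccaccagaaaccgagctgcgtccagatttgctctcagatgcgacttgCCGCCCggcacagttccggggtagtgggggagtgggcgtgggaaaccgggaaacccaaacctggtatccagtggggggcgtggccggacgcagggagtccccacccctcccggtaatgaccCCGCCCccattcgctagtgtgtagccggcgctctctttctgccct
The Klf2 window held 2 GC boxes and 1 MEF2 core, and the Klf4 window held 4 GC boxes, 2 of them sharing a letter, with no MEF2 core. Emcn held 1 ETS motif and no GC box, and Kdr held 2 GC boxes. CACCC occurred once in the Klf2 and Kdr windows and not in those of Klf4 and Emcn. Of 32851 windows of the same length, 32.7% held a GC box, 3.2% a MEF2 core, 10.8% the ETS motif and 52.0% CACCC. A match describes letters, not a bound site. Windows were found for 7 of the 10 genes; Pecam1, Cdh5 and Vwf have none here.

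Egfl7 is also the host of the endothelial microRNA miR-126, whose 3p form in mouse is shown because it is made from the Egfl7 transcript (chr2:26591402-26591423, GRCm38.p6, plus strand, inside Egfl7), with the seed, bases 2 to 8, in capitals.
mmu-miR-126a-3p: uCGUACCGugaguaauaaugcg
The microRNA itself was not measured: the gene Mir126a had 0 counts in all 5 libraries, which allows up to 0.169 to 0.209 CPM per library, and poly-A enrichment is not made to capture it.

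The HFHS-Fe hearts had lower levels of most of the 10 genes, but the genes did not move as a block. These genes were chosen with earlier results of these data known. Of the 8 identity genes 5 fell, 1 (Vwf) rose and 2 (Cdh5 and Kdr) did not pass; both flow-response genes fell. That makes 7 of 10 lower and 1 of 10 higher by edgeR's quasi-likelihood test at a Benjamini-Hochberg adjusted p of 0.05 over all genes, against a background of 18.7% lower, 19.4% higher and 38.1% called in either direction among all tested genes. The median log2 fold change (HFHS-Fe minus chow-Fe) of the 10 genes was -0.43, and that of all tested genes was -0.01. The groups did not overlap in 8 of the 10 genes, against 58.5% of all tested genes.

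**Figure D1:**
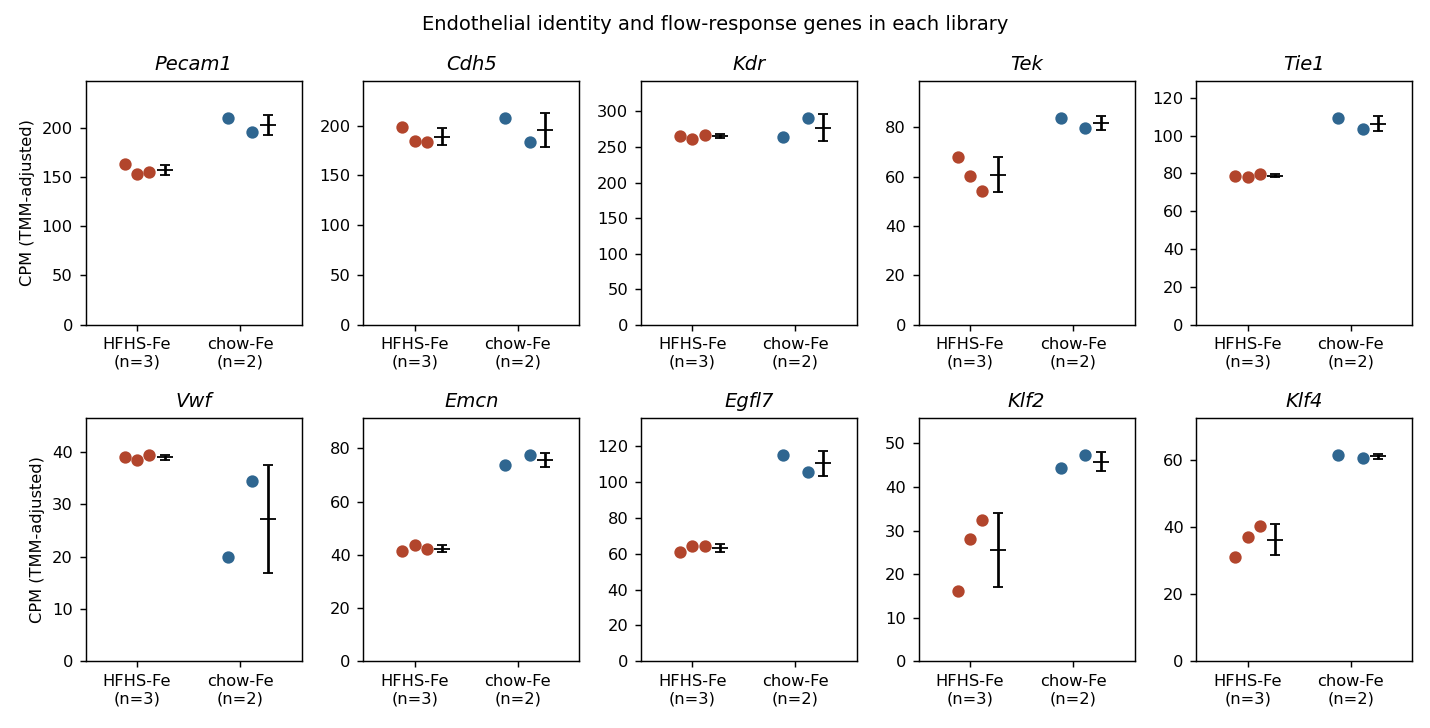
Level of each gene in CPM (counts scaled to TMM-adjusted library sizes) in each library, HFHS-Fe on the left and chow-Fe on the right of each panel; points are libraries, and the bar to their right is the mean with its SD. Emcn, Egfl7, Klf4 and Klf2 are lower in every HFHS-Fe library, Cdh5 and Kdr overlap, and the chow-Fe libraries of Vwf lie at 19.9 and 34.5 CPM.

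Set out by CPM per kilobase of merged exon (RPKM), the junction gene Cdh5 had the highest value and Vwf the lowest in both groups. Merged exons join all annotated transcripts of a gene and can be far longer than 1 of them. They span 16064 bases in Vwf, 9030 in Kdr and 4203 in Cdh5, against median annotated transcripts of 2184, 4023 and 3995 bases. The order below holds for this length and may differ with another. Cdh5 stood at 44.9 ± 2.05 RPKM in HFHS-Fe and 46.6 ± 4.00 RPKM in chow-Fe hearts, and Vwf at 2.42 ± 0.0338 RPKM in HFHS-Fe and 1.69 ± 0.641 RPKM in chow-Fe hearts (SD, n = 3 and n = 2 here and below). In HFHS-Fe hearts Kdr (29.3 ± 0.323 RPKM) was the second and Pecam1 (25.2 ± 0.815 RPKM) was the third, while in chow-Fe hearts Pecam1 (32.5 ± 1.64 RPKM), Egfl7 (30.8 ± 1.89 RPKM) and Kdr (30.7 ± 2.11 RPKM) were neighbours within their spread. Egfl7 was at 17.6 ± 0.566 RPKM in HFHS-Fe hearts, next to Tie1 (16.03 ± 0.161 RPKM). Klf2 (13.8 ± 4.57 RPKM), Tek (12.9 ± 1.48 RPKM) and Klf4 (11.9 ± 1.51 RPKM) were not separated from each other in HFHS-Fe hearts, nor was Klf2 from Tie1. In chow-Fe hearts the order below Kdr was Klf2 (24.8 ± 1.19 RPKM), Tie1 (21.6 ± 0.813 RPKM), Klf4 (20.1 ± 0.207 RPKM), Tek (17.4 ± 0.581 RPKM) and Emcn (14.0 ± 0.477 RPKM). Emcn stood at 7.83 ± 0.225 RPKM in HFHS-Fe hearts.

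**Figure D2:**
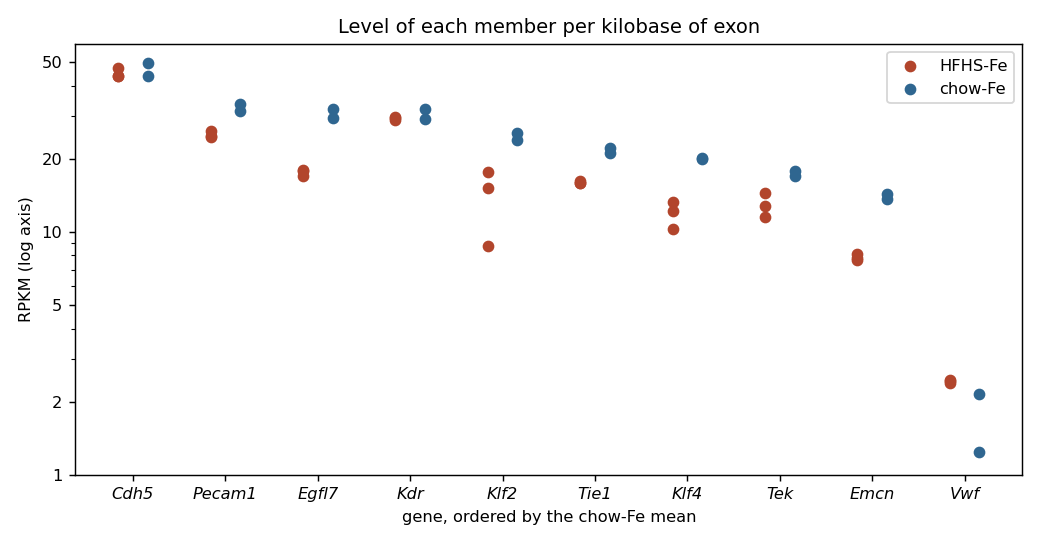
Level per kilobase of exon (RPKM, log axis) of each gene in each library, ordered by the chow-Fe mean, with HFHS-Fe libraries to the left of chow-Fe libraries for each gene. Per kilobase of merged exon, Cdh5 has the highest and Vwf the lowest value in every library, and Egfl7 is level with Kdr in chow-Fe but not in HFHS-Fe hearts.

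Of the adhesion genes, Pecam1 fell and Cdh5 did not pass. Pecam1 (ENSMUSG00000020717, chromosome 11 from 106654217 to 106750628, GRCm38) encodes CD31, an adhesion protein of endothelial junctions that platelets and leukocytes also carry. It was at 163, 153 and 155 CPM in HFHS-Fe libraries, against 209.5 and 195 CPM in chow-Fe libraries. Every HFHS-Fe value lay below both chow-Fe values (log2 fold change -0.37, SE 0.0714, edgeR adjusted p = 0.00110). With the offsets the difference was -0.53. Cdh5 (ENSMUSG00000031871, chromosome 8 from 104101625 to 104144511) encodes VE-cadherin, which holds neighbouring endothelial cells together. It was at 199, 184 and 184 CPM in HFHS-Fe libraries, against 208 and 184 CPM in chow-Fe libraries. The groups overlapped, and the log2 fold change of -0.05 had a 95% interval of -0.22 to 0.12 (edgeR adjusted p = 0.642), so a fall as large as that fitted for Pecam1 lay outside it. The CPM ratio of Pecam1 to Cdh5 within a library was 0.832 ± 0.0131 in HFHS-Fe and 1.04 ± 0.0367 in chow-Fe hearts.

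Of the growth factor receptor genes, Tek and Tie1 fell and Kdr did not pass. Kdr (ENSMUSG00000062960, chromosome 5 from 75932827 to 75978458) encodes VEGFR2, the main signalling receptor for VEGF-A. It was at 266, 262 and 267 CPM in HFHS-Fe libraries, against 263.5 and 290.5 CPM in chow-Fe libraries, with overlapping groups. Its log2 fold change was -0.06 (95% interval -0.22 to 0.09; edgeR adjusted p = 0.514). The merged exons of Kdr span 9030 bases, and with the offsets it passed, at -0.32 with an adjusted p of 0.00238 (the alternatives ranged between 0.00238 and 0.958). Tek (ENSMUSG00000006386, chromosome 4 from 94739289 to 94874976), which encodes the angiopoietin receptor TIE2, was at 68.1, 60.4 and 54.1 CPM in HFHS-Fe libraries, against 83.7 and 79.9 CPM in chow-Fe libraries. Tie1 (ENSMUSG00000033191, chromosome 4 from 118471191 to 118490061), whose product pairs with TIE2 and has no angiopoietin of its own, was at 78.4, 78.3 and 79.7 CPM in HFHS-Fe libraries, against 109 and 104 CPM in chow-Fe libraries. Both fell by nearly the same amount, with log2 fold changes of -0.43 (SE 0.0925) for Tek and -0.43 (SE 0.0721) for Tie1 and edgeR adjusted p of 0.00237 and 0.000319. The CPM ratio of Tek to Tie1 was 0.773 ± 0.0945 in HFHS-Fe and 0.769 ± 0.00317 in chow-Fe hearts.

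Emcn and Egfl7 had the largest falls among the identity genes. Emcn (ENSMUSG00000054690, chromosome 3 from 137341067 to 137432185) encodes endomucin, a sialomucin on the surface of capillary and venous endothelium. It was at 41.3, 43.7 and 42.0 CPM in HFHS-Fe libraries, against 73.9 and 77.5 CPM in chow-Fe libraries. The spread within each group was small beside that gap, and Emcn was 1.79-fold lower (95% interval 1.59 to 2.01) with an edgeR adjusted p of 2.06e-06. Egfl7 (ENSMUSG00000026921, chromosome 2 from 26580014 to 26593120), a protein that endothelial cells secrete into their matrix, was at 60.8, 64.5 and 64.1 CPM in HFHS-Fe libraries, against 115 and 105 CPM in chow-Fe libraries. It was 1.75-fold lower (95% interval 1.56 to 1.96), with an edgeR adjusted p of 2.53e-06. Agpat2, a lipid synthesis gene on the opposite strand, overlaps Egfl7 and had 393 to 442 counts in HFHS-Fe and 654 to 659 counts in chow-Fe libraries, while Egfl7 had 898 to 973 counts in HFHS-Fe and 1898 to 2124 counts in chow-Fe libraries. The strand setting of the counting is not given, so the split of reads between those genes is uncertain.

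Vwf stood apart in direction. It encodes von Willebrand factor, which tethers platelets and is stored in endothelial granules and in megakaryocytes (ENSMUSG00000001930, chromosome 6 from 125546774 to 125686679). It was at 39.0, 38.3 and 39.4 CPM in HFHS-Fe libraries, against 19.9 and 34.5 CPM in chow-Fe libraries. The HFHS-Fe libraries were nearly equal and the chow-Fe libraries far apart, and Vwf rose 1.43-fold (log2 fold change 0.52, 95% interval 0.17 to 0.86, edgeR adjusted p = 0.0206). The call rests on few libraries: the log2 fold change was 0.18 (adjusted p = 0.241) without chow-Fe replicate 1 and 0.97 (adjusted p = 7.17e-06) without chow-Fe replicate 2, and leaving out any HFHS-Fe library also ended the call (0.0502 to 0.0671). Its merged exon length of 16064 bases is the longest of the 10 genes, and with the offsets the difference was 0.10 (adjusted p = 0.657).

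**Figure D3:**
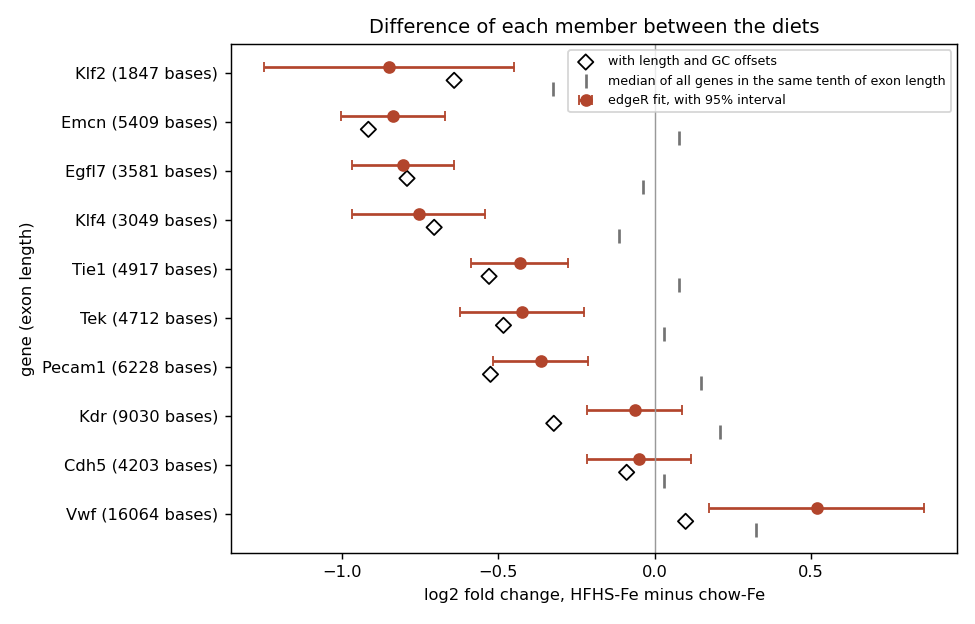
Log2 fold change (HFHS-Fe minus chow-Fe) of each gene with its 95% interval from the edgeR fit (filled circles), with the length and GC offsets (diamonds), and the median of all genes in the same 10% of exon length (ticks). Klf2, Emcn, Egfl7 and Klf4 lie at -0.76 or below; the offsets move Kdr to -0.32 and Vwf to 0.10.

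The flow-response genes Klf2 and Klf4 both fell. Klf2 (ENSMUSG00000055148, chromosome 8 from 72319033 to 72321656) was at 16.1, 28.0 and 32.4 CPM in HFHS-Fe libraries, against 44.3 and 47.4 CPM in chow-Fe libraries. All HFHS-Fe values lay below both chow-Fe values, but HFHS-Fe replicate 1 was far below the other HFHS-Fe libraries. The log2 fold change was -0.85 (SE 0.187), a level 1.80-fold lower (95% interval 1.37 to 2.38), with an edgeR adjusted p of 0.00252. It was -0.60 without HFHS-Fe replicate 1 and still past the threshold (adjusted p = 0.00194), while DESeq2 gave an adjusted p of 0.0757. Klf4 (ENSMUSG00000003032, chromosome 4 from 55527143 to 55532466) was at 31.3, 37.2 and 40.3 CPM in HFHS-Fe libraries, against 61.6 and 60.7 CPM in chow-Fe libraries. It was 1.69-fold lower (95% interval 1.46 to 1.96), with an edgeR adjusted p of 4.51e-05. HFHS-Fe replicate 1 was the lowest library for both genes. Klf2 has 1847 exon bases, and the genes in its 10% bin of exon length had a median log2 fold change of -0.32. With the offsets Klf2 was at -0.64 (adjusted p = 0.00876) and Klf4 at -0.71 (adjusted p = 3.75e-05).

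Klf2 and Klf4 also belong to the genes that respond early to many stimuli, so other immediate early genes are given beside them. Of 9 tested, Ier2, Junb and Egr1 fell, Jun rose and 5 did not pass, a share close to the 38.1% called among all tested genes. DESeq2 called neither Egr1 (adjusted p = 0.340) nor Jun (0.215). The edgeR call of Egr1 ended without HFHS-Fe replicate 1 or 3 or chow-Fe replicate 1, and that of Jun without HFHS-Fe replicate 2 or 3 or chow-Fe replicate 2 (adjusted p 0.0944 to 0.484). Ier2 was at 4.37, 9.04 and 7.03 CPM in HFHS-Fe libraries, against 15.1 and 13.0 CPM in chow-Fe libraries, and Fos at 0.375, 4.16 and 1.96 CPM in HFHS-Fe libraries, against 4.33 and 3.06 CPM in chow-Fe libraries. The summed level of the list was 118, 202 and 197 CPM in HFHS-Fe replicates 1, 2 and 3, against 220.3 and 158 CPM in chow-Fe replicates 1 and 2. The library with the lowest Klf2 also had the lowest sum. The library with the highest Klf2, chow-Fe replicate 2 (47.4 CPM), had a lower sum than HFHS-Fe replicates 2 and 3. The part of these genes in the Klf2 and Klf4 result was not tested. Macrophages can express KLF2 and KLF4 too; their markers summed to 108 to 126 CPM in HFHS-Fe and 241 to 262 CPM in chow-Fe libraries, and their part was not tested either.

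A ratio within a library does not depend on how libraries are scaled, so each gene was set against the geometric mean of the other identity genes in the same library. Such a ratio still carries the trend on exon length, and the ratios were not computed with the offsets. In the fit, the offsets moved 2 genes of that mean, Vwf from 0.52 to 0.10 and Kdr from -0.06 to -0.32. They moved Klf2 from -0.85 to -0.64, so the sizes below may differ after that correction. Relative to them, Emcn was lower by 0.61 on the log2 scale in HFHS-Fe than in chow-Fe hearts (-1.22 ± 0.0648 against -0.61 ± 0.0104), Klf2 differed by -0.60, Egfl7 by -0.57 and Klf4 by -0.46. In these 4 genes the groups did not overlap, and on CPM the same held for 58.5% of all tested genes. Without HFHS-Fe replicate 1 the difference of Klf2 was -0.29. Cdh5 differed by 0.29, Kdr by 0.27 and Vwf by 1.00 in the other direction, also without overlap. Among the identity genes such differences cancel by construction: where some are lower, others must be higher. Opposite signs are therefore no result about Cdh5, Kdr or Vwf. The low Vwf value of chow-Fe replicate 1 also enters the ratio of every other gene. The difference of Vwf was 0.58 without chow-Fe replicate 1, and that of Cdh5 0.16 without chow-Fe replicate 2. Tie1 differed by -0.15 without overlap (-0.07 without chow-Fe replicate 1), and Pecam1 (-0.07) and Tek (-0.15) with overlap. Leaving out 1 library or 1 gene of the mean moved the difference of Pecam1 between -0.16 and 0.07 and that of Tek between -0.24 and -0.01. With 3 libraries against 2, the smallest p that an exact two-sided permutation test allows is 0.1, so these ratios are given without a test. The CPM ratio of Klf2 to Cdh5 was 0.137 ± 0.0497 in HFHS-Fe and 0.236 ± 0.0314 in chow-Fe hearts, and that of Klf4 to Cdh5 0.193 ± 0.0321 in HFHS-Fe and 0.314 ± 0.0237 in chow-Fe hearts. The ratio of Klf2 to Klf4 was 0.691 ± 0.154 in HFHS-Fe and 0.750 ± 0.0436 in chow-Fe hearts.

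**Figure D4:**
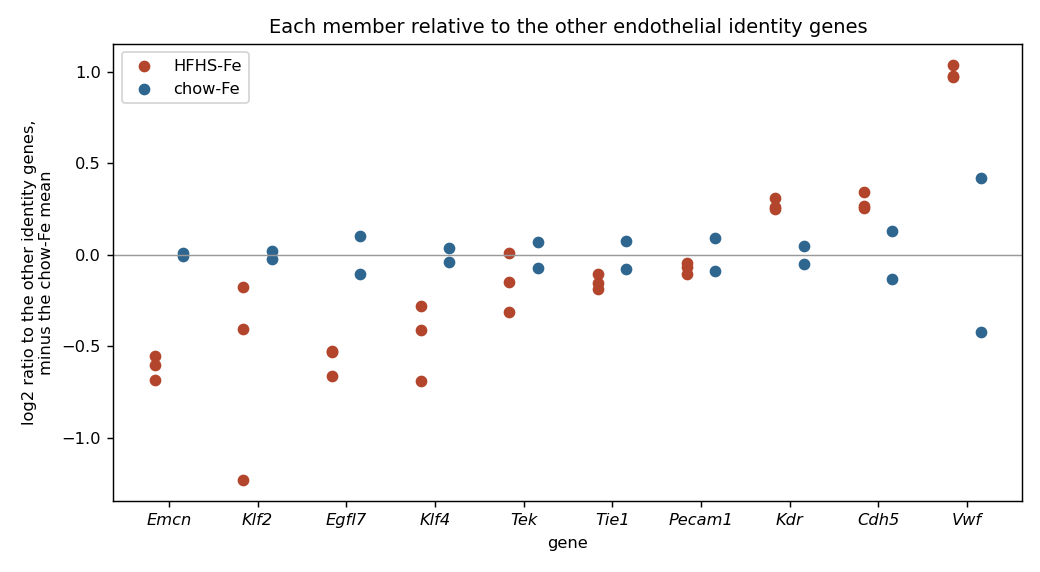
Log2 ratio of each gene to the geometric mean of the other endothelial identity genes in the same library, minus the mean of the chow-Fe libraries; each point is a library, HFHS-Fe to the left of chow-Fe. Emcn, Klf2, Egfl7, Klf4 and Tie1 lie below the chow-Fe libraries, Kdr, Cdh5 and Vwf above them, and Pecam1 and Tek overlap. Among the identity genes the differences cancel by construction.

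Partners of the receptors did not share one direction. Among 9 tested VEGF ligands, receptors and co-receptors, 4 rose and 3 fell, against 19.4% higher and 18.7% lower over all tested genes. Vegfa, which encodes the main ligand of VEGFR2, rose to 379, 392 and 479.9 CPM in HFHS-Fe libraries, against 312 and 301 CPM in chow-Fe libraries (log2 fold change 0.45, edgeR adjusted p = 0.00178). Vegfd, a ligand of the lymphatic receptor VEGFR3, rose 2.11-fold, and Pgf, which binds VEGFR1, was 1.72-fold lower (log2 fold change -0.78, and -0.50 with the offsets). The co-receptor gene Nrp1 rose 1.30-fold (log2 fold change 0.38). With the offsets it was at 0.12 and did not pass (adjusted p = 0.285), and 2 genes of the list rose and 2 fell. None of the 3 tested partners of the Tie receptors passed by edgeR, DESeq2 or limma-voom, and 1 (Ptprb) had an unadjusted edgeR p under 0.05. The angiopoietin gene Angpt1 was at 26.5 ± 5.55 CPM in HFHS-Fe and 26.2 ± 5.56 CPM in chow-Fe hearts. Angpt2, the other angiopoietin gene tested, was at 5.24 ± 0.664 CPM in HFHS-Fe and 4.83 ± 0.243 CPM in chow-Fe hearts, and Ptprb, the phosphatase that acts on TIE2, at 176 ± 9.26 CPM in HFHS-Fe and 155 ± 1.85 CPM in chow-Fe hearts. The edgeR adjusted p was 0.939 for Angpt1, 0.650 for Angpt2 and 0.0618 for Ptprb.

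Of 11 junction partners, 5 fell and 3 rose, against 18.7% lower and 19.4% higher over all tested genes. The endothelial tight junction gene Cldn5 was 2.13-fold lower, at 10.2, 8.69 and 9.26 CPM in HFHS-Fe libraries and 20.8 and 19.2 CPM in chow-Fe libraries (edgeR adjusted p = 8.97e-06). The adhesion genes Esam and Jam3 were 1.41-fold and 1.56-fold lower. Tjp1, a scaffold protein that muscle cells also express, rose 1.42-fold (log2 fold change 0.50, and 0.28 with the offsets). Of the von Willebrand factor partners, Gp1ba, the platelet receptor for it, rose at a low level (2.54 ± 0.401 CPM in HFHS-Fe and 0.989 ± 0.251 CPM in chow-Fe hearts). The granule membrane gene Cd63 was 1.44-fold lower, a call that ended with the offsets (adjusted p = 0.159). F8 and Rab27a did not pass, and Selp (1 to 8 counts) and Adamts13 (0 to 2 counts) were too low to test. The platelet gene Pf4 was at 5.61 ± 0.510 CPM in HFHS-Fe and 15.8 ± 0.642 CPM in chow-Fe hearts and fell, as 1 of 3 platelet markers tested, and Gp9 (0 to 5 counts), Gp1bb (0 to 3 counts) and Treml1 (0 to 2 counts) were near 0. The platelet markers summed to 6.41 to 8.62 CPM in HFHS-Fe and 19.3 to 20.4 CPM in chow-Fe libraries, and their part in the Pecam1 and Vwf results was not tested.

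Of 5 genes known to be raised by KLF2 or KLF4, 3 fell and none rose, against 18.7% lower and 19.4% higher over all tested genes. Thbd, which encodes thrombomodulin, a receptor that turns thrombin against clotting, was at 55.6, 54.8 and 56.4 CPM in HFHS-Fe libraries, against 80.2 and 83.8 CPM in chow-Fe libraries (log2 fold change -0.56, edgeR adjusted p = 5.00e-05). The sphingosine 1-phosphate receptor gene S1pr1 was 1.63-fold and the water channel gene Aqp1 1.28-fold lower (for Aqp1 a log2 fold change of -0.36, and -0.23 with the offsets). Nos3, the endothelial nitric oxide synthase, did not pass, at 25.9 CPM in HFHS-Fe and 28.4 CPM in chow-Fe hearts, with a log2 fold change of -0.14 (95% interval -0.35 to 0.08). Cyp1b1 did not pass either, except as lower without chow-Fe replicate 1 (adjusted p = 0.00329) or with no filter on low counts (0.0498). The median of the list was -0.45, beside -0.40 for 13 endothelial transcription factors and -0.79 for 7 capillary markers described below. The part of Klf2 and Klf4 in these falls was not tested. Of 5 genes known to be lowered by them (Edn1, Vcam1, Sele, Ccl2 and Adm), 0 passed by edgeR, DESeq2 or limma-voom, 0 had an unadjusted edgeR p under 0.05, and the median was 0.05. Ccl2, at 3.31, 1.94 and 1.49 CPM in HFHS-Fe libraries and 4.98 and 2.44 CPM in chow-Fe libraries, passed as lower without HFHS-Fe replicate 1 or chow-Fe replicate 2 (adjusted p 0.0453 and 0.0169) and with no filter on low counts (0.0247). Vcam1 passed as higher without chow-Fe replicate 1 (adjusted p = 0.00282). Upstream, 5 of 15 genes of flow sensing and the ERK5 to MEF2 path rose and 1 fell, a share close to the 38.1% of all tested genes that were called. The MEF2 gene Mef2d rose 1.57-fold, the kinase gene Map3k3 1.35-fold and the mechanically gated channel gene Piezo1 1.47-fold, while Pdcd10, a member of the cerebral cavernous malformation complex, was 1.44-fold lower. With the offsets 2 rose and 3 fell, the median of the list was -0.02 in place of 0.17, and Piezo1 did not pass (adjusted p = 0.0925). Krit1, of the same complex, was at 0.26 without and -0.25 with the offsets, with edgeR adjusted p of 0.0446 and 0.0467. Neither value was firm: the first did not pass by DESeq2, with upper-quartile factors, in the replicate block or without any 1 of 4 libraries (0.0746 to 0.169), nor the second with length offsets alone (0.0973). MEF2 and MAP3K genes are also expressed in muscle cells.

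Other members of the Krüppel-like family differed in direction. Of 10 tested, 5 rose and none fell, against 19.4% higher and 18.7% lower over all tested genes. Klf10, at 15.8 ± 4.82 CPM in HFHS-Fe and 22.2 ± 4.05 CPM in chow-Fe hearts, missed the threshold (edgeR adjusted p = 0.0532). Klf9, which glucocorticoids induce, was at 96.1 ± 5.77 CPM in HFHS-Fe and 61.7 ± 3.29 CPM in chow-Fe hearts (edgeR adjusted p = 3.58e-05). Klf15, a regulator of heart muscle metabolism, rose 1.40-fold, Klf7 1.46-fold (log2 fold change 0.55, and 0.30 with the offsets) and Klf12, at a low level, 3.37-fold. With the offsets 4 rose and Klf3 fell, and with upper-quartile factors, limma-voom, no filter on low counts or without HFHS-Fe replicate 1 or chow-Fe replicate 1, 5 rose and Klf10 fell.

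Genes of other endothelial types placed the identity genes in context, beside shares of 18.7% lower and 19.4% higher among all tested genes. Of 7 capillary markers, 6 fell and 1 rose, with a median log2 fold change of -0.79. The fatty acid-binding protein gene Fabp4 was at 424 ± 3.24 CPM in HFHS-Fe and 1015 ± 120.3 CPM in chow-Fe hearts (edgeR adjusted p = 6.23e-08), and Rgcc was 1.91-fold lower (log2 fold change -0.93, and -0.56 with the offsets). The exception was Cd36, the fatty acid transporter that heart muscle cells make too, which rose (log2 fold change 0.24, adjusted p = 0.00863) and did not pass without HFHS-Fe replicate 1 or 2. Of 8 arterial markers 3 fell and none rose, a share of calls close to the 38.1% of all tested genes. Gja4 was 1.85-fold and Hey1 1.61-fold lower. Of 3 tested venous markers 2 fell, Aplnr 1.90-fold and Ephb4 1.20-fold; Ephb4 passed at 0.0254 and not when any 1 of HFHS-Fe replicates 1 or 3 or either chow-Fe library was left out. Of 13 endothelial transcription factors, 7 fell and none rose. Fli1, which blood cells make too, was 1.67-fold and Sox18 1.76-fold lower, while Erg was at 29.2 CPM in HFHS-Fe and 32.1 CPM in chow-Fe hearts and did not pass (log2 fold change -0.14, 95% interval -0.41 to 0.14). Without chow-Fe replicate 1 only 3 of the 13 passed, without HFHS-Fe replicate 1 only 4.

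Endocardial genes, from the layer that lines the chambers, and lymphatic genes moved in both directions. Of 4 endocardial genes 2 rose and 1 fell, and of 5 tested lymphatic genes 3 rose and 2 fell. The shares over all tested genes were 19.4% higher and 18.7% lower. The endocardial gene Npr3, the clearance receptor for natriuretic peptides, rose 2.28-fold, at 20.4, 16.9 and 21.3 CPM in HFHS-Fe libraries, against 6.33 and 10.9 CPM in chow-Fe libraries (edgeR adjusted p = 0.000171). Like Vwf, it was lowest in chow-Fe replicate 1. Plvap rose 2.05-fold, with calls lost without HFHS-Fe replicate 1 (adjusted p = 0.0940) or chow-Fe replicate 1 (0.176). Cytl1 fell (adjusted p = 0.0260), a call that ended without HFHS-Fe replicate 1 or 2, without chow-Fe replicate 2 and with the offsets (0.0766 to 0.305). Of the lymphatic genes, Mmrn1 rose 1.89-fold and Lyve1, which macrophages carry too, was 1.68-fold lower, and not past the threshold without chow-Fe replicate 2 (adjusted p = 0.0503). With the offsets 1 lymphatic gene rose and 1 fell. The endocardial markers summed to 41.8 to 44.6 CPM in HFHS-Fe and 28.5 to 37.4 CPM in chow-Fe libraries, and their part in the Vwf result was not tested.

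**Figure D5:**
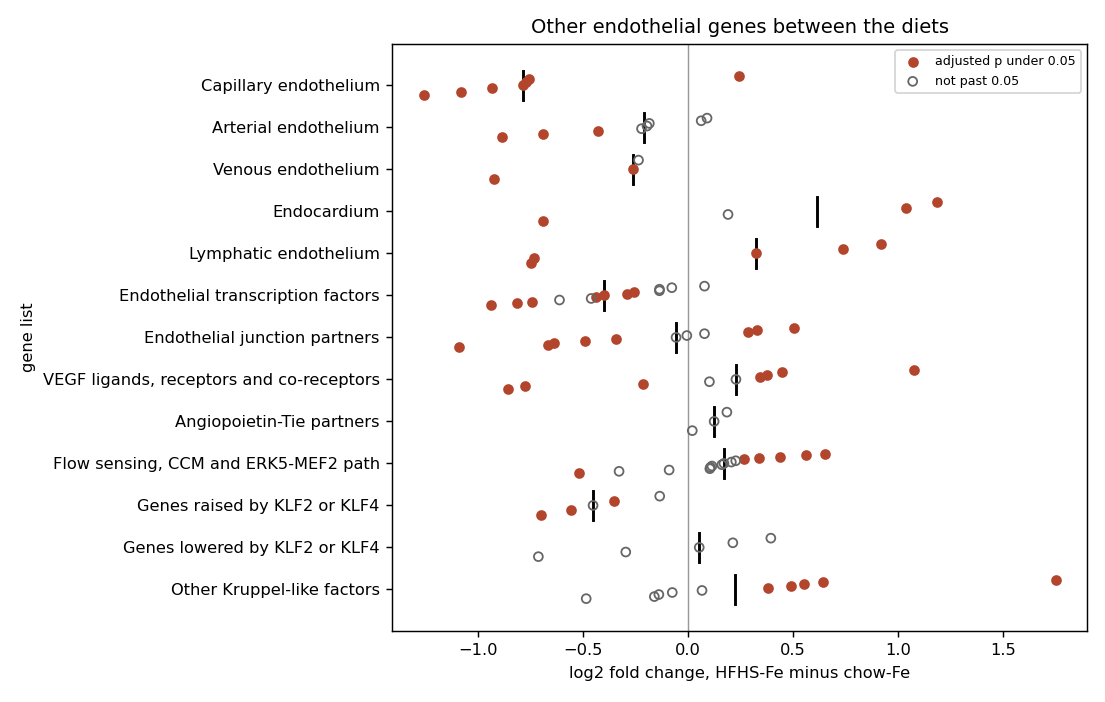
Log2 fold change (HFHS-Fe minus chow-Fe) of each tested gene of 13 endothelial and flow-related lists; filled points passed an adjusted p of 0.05, open points did not, and the black bar is the median of the list. The capillary list has 6 of 7 genes to the left of zero, and the other Krüppel-like factors have their 5 filled points to the right.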

How the data were processed

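The deposited values were raw counts per gene and exon length in bases, 1 table per library, as the authors left them. The submitters' processing notes name Trimmomatic (0.36), STAR (2.5.2b), featureCounts and Subread (1.5.2), with build GRCm38; strand setting and annotation release were not stated. GENCODE M21 (GRCm38) gave symbols for 49056 of 49315 genes.

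The counts entered edgeR 4.0.16 under R 4.3.3 (filterByExpr, TMM, quasi-likelihood test on diet, all 5 libraries, Benjamini-Hochberg over 14221 genes). Standard errors and 95% intervals were derived from the fitted coefficient and its F statistic. CPM and RPKM used TMM-adjusted library sizes, and summed markers used total counts. A count of 0 was taken to allow 3 counts, counting error only. No 2 libraries agreed within sampling noise (chi-square per degree of freedom 2.64 to 62.5).

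The members and lists were chosen with earlier results of these data known. Named genes are the 10 members and the tested genes with the smallest p of each list (up to 4 per pathway list, 2 per marker list). Cd36, Nos3, Erg, Cytl1, Edn1, Krit1, Klf3, Klf10, Fos, Msln, Wt1, Myl3, Tnnt2, Myh6, Ryr2, the untested genes and the MEF2 motif were added after their values were seen. Alternatives used DESeq2 1.42.0, limma-voom 3.58.1 and offsets fitted with mgcv 1.9.3. In data simulated for this comparison (13961 genes), the fit found 48.9% of genes changed 1.5 fold and 77.6% of those changed 2 fold. Only 200 genes were set to change there, a far smaller share than the 38.1% called in these data. The adjusted threshold was therefore stricter in the simulation, and its rates do not give the power of the comparison here.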

Additional observations from a re-analysis of the deposited data

How the results depend on the processing

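The count of lower genes was 7 of 10 without any 1 library, 6 of 10 by DESeq2 (which did not call Klf2) and 8 of 10 with either set of offsets. The count of higher genes, 1 (Vwf), ranged from 0 to 1 when 1 library was left out, and was 0 with length and GC offsets, with length offsets and at an adjusted p of 0.01. Over all genes 5417 were called, 4248 to 4929 without 1 library, 4391 with length and GC offsets (3500 of them shared with the 5417 and in the same direction) and 4216 by DESeq2. Upper-quartile factors moved the median log2 fold change of all genes to -0.05, and 45.4% of calls were then higher, against 50.9%, and with length and GC offsets 46.8% were. Of 150 values of the members under the alternatives, 139 kept direction and side of the threshold. When 1 library was left out, the log2 fold change of Cdh5 ranged between -0.14 and 0.041 (positive without chow-Fe replicate 1) and that of Kdr between -0.13 and 0.0072 (positive without chow-Fe replicate 2), and none of these passed. Labels give the groups shared replicate numbers 1 and 2, but deviations of same-numbered libraries correlated at only 0.0348 and 0.0258, so the numbers were not treated as pairs. With the replicate block, 5332 genes were called, 7 members were lower and 1 higher, and Klf2 was at -1.09. Where a cause is not named here, it was not tested. With 2 chow-Fe libraries, leaving 1 out assumes that the other varies like the HFHS-Fe libraries.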

Other observations

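The genes whose log2 CPM profile over the 5 libraries lay nearest to that of Pecam1, among genes averaging 4 CPM or more, were Atp5c1, Rgs5 and Txndc12, at Euclidean distances of 0.0287, 0.0288 and 0.0516. Rgs5, a pericyte gene, was at 752, 706 and 709 CPM in HFHS-Fe libraries, against 946 and 904 CPM in chow-Fe libraries. Nearest to Klf2 were Cdk2ap2, Nudt16l1 and Rhog, at 0.304, 0.318 and 0.341, farther than those of Pecam1. Distances over 5 libraries describe these libraries and say nothing of shared control.

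Genes of the cells beside the endothelium differed as well. The pericyte potassium channel genes Kcnj8 and Abcc9 moved apart: Kcnj8 was 1.63-fold lower, and Abcc9, which heart muscle cells also express, rose 1.61-fold. Of 8 pericyte and smooth muscle markers 3 fell and 1 rose, against 18.7% lower and 19.4% higher over all tested genes. Fat cell markers summed to at most 0.464 CPM in HFHS-Fe and 0.0577 CPM in chow-Fe libraries. The mesothelial gene Msln was at 1.44, 1.51 and 1.55 CPM in HFHS-Fe libraries and had 0 counts in both chow-Fe libraries, which allows up to 0.169 and 0.173 CPM. Of 3 tested mesothelial markers, Msln and Upk3b rose (Upk3b not by DESeq2, adjusted p = 0.0957). Wt1 did not pass, at a log2 fold change of -0.30. The mesothelial markers summed to 8.70 to 11.3 CPM in HFHS-Fe and 7.09 to 9.23 CPM in chow-Fe libraries, so the groups overlapped.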
